A study of Mus musculus with 8 samples.

Results

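The genes described here encode 5 enzymes that make, interconvert or use ketone bodies, namely Bdh1, Bdh2, Oxct1, Acat1 and Aacs. They were taken by name from a count table of 27179 genes, by matching its Entrez identifiers to these symbols. The rule itself uses no measured value, but the genes were listed with earlier results of these data known. The RNA came from neonatal cardiomyocytes (NCMs) of C57Bl/6J mice, collected on postnatal day 0. Offspring had been exposed in utero either to filtered air (FA, 4 libraries, replicates 2, 3, 4 and 6) or to diesel exhaust (DE, 4 libraries, replicates 1, 3, 5 and 7) from the start of gestation until shortly before birth, and each library was made from the cells of 1 male heart. The groups differ by what the dams breathed, the strain is the same, and the sources used here do not say which pups shared a dam. Cells were enriched for cardiomyocytes by letting fibroblasts attach to a plate and were not sorted. The sample names begin with 1 of 2 numbers of unstated meaning, 11 for every FA library and for DE replicates 1 and 7, and 12 for DE replicates 3 and 5.

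Ketone bodies are small water-soluble fuels that the liver makes from acetyl-CoA when fat is being burned, and the heart is among the organs that use them most readily. In the mitochondria of a cell that uses them, BDH1 oxidises beta-hydroxybutyrate to acetoacetate, OXCT1 places coenzyme A from succinyl-CoA on acetoacetate, and ACAT1 splits the acetoacetyl-CoA so formed into acetyl-CoA for the citrate cycle. BDH1 and ACAT1 act in both directions and also take part in synthesis, whereas OXCT1 is nearly absent from hepatocytes. In the cytosol, AACS activates acetoacetate for the synthesis of fatty acids and cholesterol. BDH2 is a cytosolic dehydrogenase of beta-hydroxybutyrate that has also been linked to a mammalian iron-binding siderophore.

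The 8 libraries held between 17943024 and 39839737 counts, and 14966 genes had enough counts to be tested. Values are given as CPM, the counts of a gene scaled to a common library size with TMM factors, and differences as log2 fold changes of DE against FA. They were tested by the quasi-likelihood method of edgeR, with p-values adjusted over all tested genes after Benjamini and Hochberg. A gene was called when its adjusted p was 0.05 or less and the groups differed by at least 25%. All 5 genes passed the filter on low counts. Of the 5, 1 was called higher in DE, Bdh1, and 0 were called lower, against 3.58% of all tested genes called higher, 2.22% called lower and 5.80% called in either direction. DESeq2 called 2, Bdh1 and Oxct1, both higher, where it called 10.7% of the genes it tested. In edgeR 4 of the 5 had an unadjusted p under 0.05, as did 25.6% of all tested genes. The CPM values of FA and DE did not overlap for 4 of the 5 genes, higher in DE for Bdh1, Oxct1 and Aacs and lower for Acat1, whereas 14.7% of all tested genes had groups that did not overlap. Because RNA was measured from whole cell pellets, a change in the share of a cell type and a change in RNA per cell cannot be told apart.

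The markers of the cells that the pellets could hold moved with exposure in part. Cardiomyocyte markers summed to 66299 to 70054 CPM in FA and 55785 to 63913 CPM in DE, without overlap. Their log2 fold changes were positive in 1 of 10 (median -0.15), with 1 called higher and 2 lower. All 10 fibroblast markers had positive log2 fold changes (median 0.66), 3 of them called, and their sum was 2052 to 3525 CPM in FA and 3719 to 6280 CPM in DE, without overlap, like Bdh1, Oxct1 and Aacs. The part of fibroblast RNA in those differences was not tested. The 10 markers of hepatocytes, which have abundant Bdh1, summed to 4.65 to 6.74 CPM in FA and 5.28 to 13.1 CPM in DE, with Serpina1a at 0 in every library. Of the 4 that could be tested, 3 had positive log2 fold changes (median of the 4 0.62) and 0 were called, and their part in the Bdh1 difference was not tested.

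Leukocyte markers summed to 13.5 to 20.5 CPM in FA and 18.2 to 28.9 CPM in DE, with 5 of 6 tested positive and 0 called. The sums of endothelial (1359 to 1749 and 1477 to 2155 CPM), mesothelial (93.1 to 118 and 85.3 to 122 CPM) and erythroid markers (8 of 10 in the table, 759 to 1881 and 1209 to 2022 CPM) overlapped between FA and DE, as did those of smooth muscle and pericytes (1643 to 2225 and 1229 to 1644 CPM). Erythroid markers had positive log2 fold changes in 6 of 6 tested (median 0.41), with 1 called higher, and the endothelial ones in 8 of 10, with 0 called. The summed brown adipocyte markers did not overlap (21.2 to 25.9 CPM in FA and 16.6 to 18.1 CPM in DE), with 1 of 3 tested called lower and the other 2 positive.

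**Figure D1:**
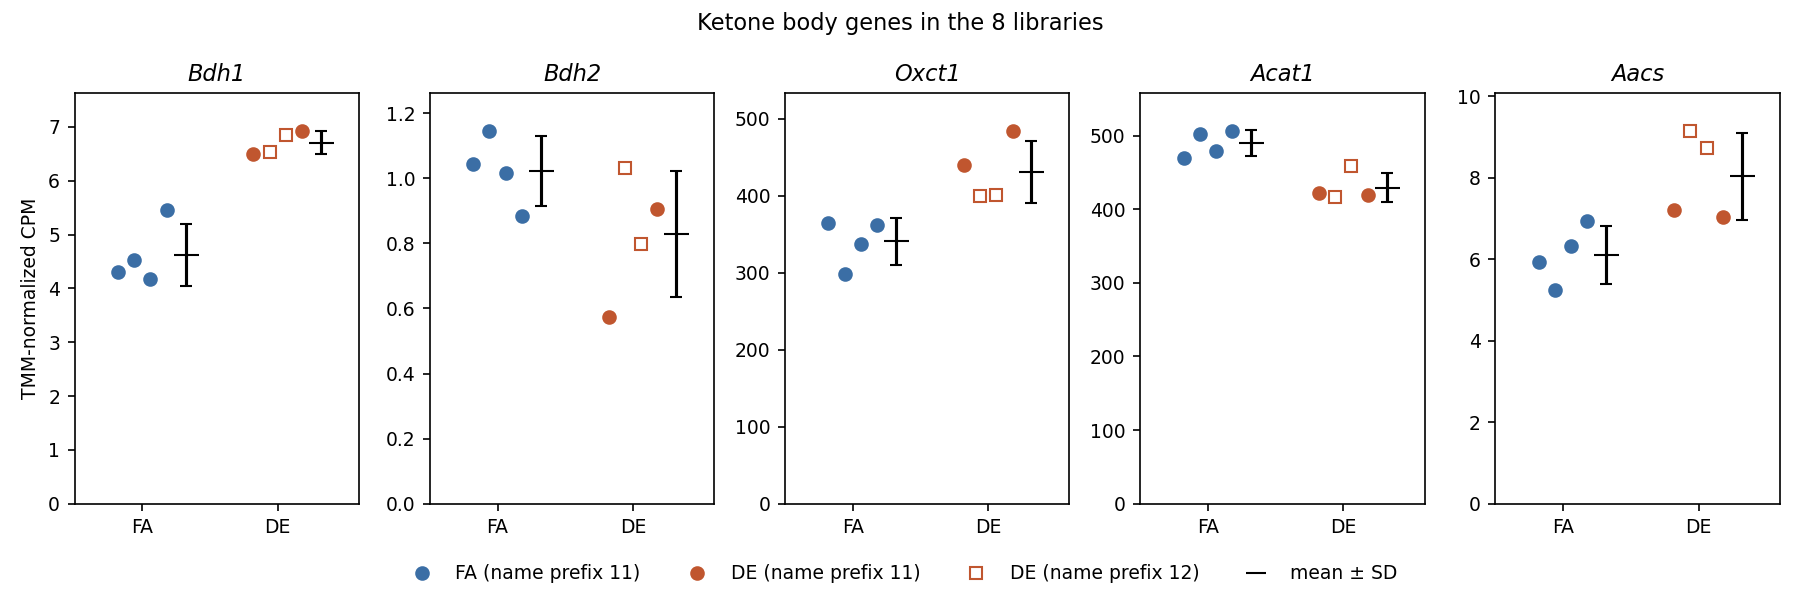
TMM-normalized CPM (vertical axes, each from 0) of the 5 ketone body genes in the 4 FA and 4 DE libraries, with 1 point per library, open squares for the DE libraries of prefix 12, and the mean ± SD beside the points. Bdh1 lay between 4.18 and 5.46 CPM in FA and between 6.51 and 6.93 CPM in DE, and Bdh2 is the gene whose groups overlapped.

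Bdh1 (Entrez gene 71911), the mitochondrial beta-hydroxybutyrate dehydrogenase, lies on the plus strand of GRCm38 at chr16:31422297-31458901. It had a low level, with 74 to 275 counts per library. FA replicates 2, 3, 4 and 6 had 4.30, 4.53, 4.18 and 5.46 CPM, and DE replicates 1, 3, 5 and 7 had 6.51, 6.54, 6.86 and 6.93 CPM. The highest FA library, replicate 6, stayed below every DE library, and the DE libraries lay close together. The mean was 4.62 ± 0.579 CPM under FA and 6.71 ± 0.216 under DE (SD, n = 4 per group). In the fit over all genes Bdh1 rose 1.45-fold (95% interval 1.19 to 1.78), a log2 fold change of 0.54 (SE 0.13) with an adjusted p of 0.0388 in the Benjamini-Hochberg adjusted edgeR fit.

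The size of the Bdh1 difference hardly moved when single libraries were left out (log2 fold change 0.49 to 0.63), but the call was lost without FA replicate 2, 3 or 4 and without DE replicate 3, 5 or 7, with the adjusted p by edgeR's quasi-likelihood test running from 0.0282 to 0.136 over the 8 omissions. Among the libraries of prefix 11 it was 0.54 as well, with an edgeR adjusted p of 0.139 from 4 against 2 libraries. With all libraries and the prefix as a term it was again 0.54 and not called (edgeR adjusted p 0.0939). The call was also lost with the 25% difference built into the test (edgeR adjusted p 0.337). Of the exon bases of Bdh1, 533 of 3888 (13.7%) are shared with Gm15743, an antisense gene that has no row in the table, and the strand setting of the counting is not stated, so reads from the 2 genes cannot be told apart there.

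Oxct1 (67041, chr15:4026428-4155344, plus strand) encodes the rate-limiting enzyme of ketone use outside the liver. It was counted 5987 to 16071 times per library. FA replicates 2, 3, 4 and 6 had 364, 299, 338 and 362 CPM, and DE replicates 1, 3, 5 and 7 had 439.7, 399, 401 and 484 CPM. Every DE library was above every FA library, with both prefix 12 libraries at the lower end of DE. Means were 341 ± 30.4 CPM under FA and 431 ± 40.2 under DE (SD, n = 4 per group). The fitted difference was 26.5% (log2 fold change 0.34, SE 0.10, 95% interval 0.11 to 0.57), and with an adjusted p of 0.0786 in the Benjamini-Hochberg adjusted edgeR fit Oxct1 was not called.

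The verdict on Oxct1 turned with the method. DESeq2 called it at a log2 fold change of 0.34 with an adjusted p of 0.0318, and so did the quasi-likelihood test on library totals without TMM factors (0.41, edgeR adjusted p 0.0359), which called 6.82% of all tested genes. Among prefix 11 libraries the log2 fold change was 0.43 with an adjusted p of 0.112 in edgeR. The exons of Oxct1 share 467 of 3701 bases (12.6%) with BC037032 on the opposite strand, which had 664 counts over all libraries against 86576 for Oxct1. The testis-type paralogs Oxct2a and Oxct2b had 18 and 6 counts in all, so few reads were assigned to them.

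The bases upstream of the called gene and of Oxct1 are shown because their promoter windows hold the same short motif, a choice made after the windows had been searched. RefSeq windows of 250 bases before the transcript start, on GRCm38.p6, were at hand for 4 of the 5 genes, in 5 windows. The motif GGGTCA, a hexamer of the kind that nuclear receptors bind, searched on both strands, was found in 2 of them and in 11.6% of all 32851 windows. It was not in the window of Aacs, which like Bdh1 and Oxct1 was higher in every DE library, nor in that of Bdh2 or the second window of Bdh1. Capitals mark GGGTCA or its reverse complement, 102 bases before the start of Bdh1 and 145 bases before that of Oxct1. The Bdh1 window is chr16:31422047-31422296 and the Oxct1 window is chr15:4026178-4026427, both on the plus strand and printed 5′ to 3′.
Bdh1: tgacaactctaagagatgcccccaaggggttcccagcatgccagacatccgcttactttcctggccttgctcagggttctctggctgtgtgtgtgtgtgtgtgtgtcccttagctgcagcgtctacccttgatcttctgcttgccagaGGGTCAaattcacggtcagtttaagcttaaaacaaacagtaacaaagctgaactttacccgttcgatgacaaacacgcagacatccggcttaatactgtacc
Oxct1: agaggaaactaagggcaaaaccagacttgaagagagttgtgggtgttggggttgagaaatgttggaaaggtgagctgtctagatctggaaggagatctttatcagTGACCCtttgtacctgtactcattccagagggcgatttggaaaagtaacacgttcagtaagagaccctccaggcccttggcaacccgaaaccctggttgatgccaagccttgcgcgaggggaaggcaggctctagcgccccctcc
In these windows the related hexamer AGGTCA, the E-box CACGTG, the CCAAT box, the GC box GGGCGG and the TATA box TATAAA were not found on either strand, nor was any of them in the second Bdh1 window. Over all windows they occurred in 14.0%, 6.02%, 33.8%, 32.7% and 12.4%. A match of 6 letters is a description of the sequence and says nothing of binding.

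Acat1 (110446, chr9:53580522-53610350, minus strand), the mitochondrial acetoacetyl-CoA thiolase, had 7876 to 18365 counts per library. FA replicates 2, 3, 4 and 6 had 470.0, 503, 479 and 506 CPM, and DE replicates 1, 3, 5 and 7 had 422, 416, 458 and 419.8 CPM. It was the one gene of the 5 with every DE library below every FA library. DE replicate 5, at 458 CPM, lay nearest to FA and apart from the other DE libraries. The mean was 489.7 ± 17.8 CPM under FA and 429 ± 19.5 under DE (SD, n = 4 per group), a log2 fold change of -0.19 (SE 0.09, 95% interval -0.38 to -0.004). This corresponds to -12.4%, which is under the fold asked for a call, and the adjusted p was 0.188 in the Benjamini-Hochberg adjusted edgeR fit.

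Aacs (78894, chr5:125475873-125517405, plus strand), the cytosolic acetoacetyl-CoA synthetase, had 105 to 350 counts per library. FA replicates 2, 3, 4 and 6 had 5.94, 5.23, 6.32 and 6.93 CPM, and DE replicates 1, 3, 5 and 7 had 7.20, 9.15, 8.73 and 7.04 CPM. The groups just failed to overlap, and the highest DE values belonged to the libraries of prefix 12. Means were 6.11 ± 0.713 CPM under FA and 8.03 ± 1.07 under DE (SD, n = 4 per group). The log2 fold change of 0.40 (SE 0.14, 95% interval 0.09 to 0.71) had an adjusted p of 0.112 in the Benjamini-Hochberg adjusted edgeR fit and was not called. With prefix 11 libraries alone it was 0.22 (edgeR adjusted p 0.555).

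Bdh2 (69772, chr3:135281221-135304426, plus strand), the cytosolic dehydrogenase, was the least abundant, with 17 to 39 counts per library. FA replicates 2, 3, 4 and 6 had 1.04, 1.15, 1.02 and 0.885 CPM, and DE replicates 1, 3, 5 and 7 had 0.575, 1.03, 0.798 and 0.906 CPM. DE replicate 1 was the lowest of all libraries, and the others of both groups were mixed. The mean was 1.02 ± 0.107 CPM under FA and 0.828 ± 0.194 under DE (SD, n = 4 per group). The log2 fold change of -0.31 (SE 0.23) had a 95% interval from -0.83 to 0.20. Its adjusted p was 0.424 in the Benjamini-Hochberg adjusted edgeR fit, so no change was detected in either direction. Without DE replicate 1 the log2 fold change was -0.17. It was -0.52 with the prefix as a term and -0.53 among prefix 11 libraries, and Bdh2 was called in 0 of 18 alternatives.

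Because the 5 genes are steps of connected routes, their balance within a library was compared next, as the log2 ratio of CPM + 0.5 for all 10 pairs, with an exact two-sided permutation test. The ratio of Oxct1 to Acat1, consecutive steps of acetoacetate use, was 0.775, 0.594, 0.705 and 0.715 in FA replicates 2, 3, 4 and 6 and 1.04, 0.960, 0.875 and 1.15 in DE replicates 1, 3, 5 and 7 (CPM over CPM). Acat1 thus had a higher CPM than Oxct1 in every FA library, and the pair was near parity in DE. The log2 ratio was 0.53 higher in DE, the exact permutation p was 0.0286, the smallest that 4 against 4 libraries allow, and the p adjusted over the 10 pairs was 0.0714 (exact test).

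The log2 ratio to Acat1 was also higher in DE by 0.69 for Bdh1 and by 0.56 for Aacs, and that of Bdh1 to Bdh2 by 0.71. In these 3 pairs too the groups did not overlap, with the same exact permutation p of 0.0286 and adjusted p of 0.0714. With that adjusted p, 0 of the 10 pairs passed 0.05, although 4 reached the smallest p the design allows. Bdh1 and Oxct1, the mitochondrial dehydrogenase and the transferase that takes its product, had a log2 ratio that differed by 0.16 between groups (exact permutation p 0.2, adjusted 0.286), and their groups overlapped. Bdh1 against Aacs differed by 0.13 and Aacs against Oxct1 by 0.03, both with overlapping groups. These small differences moved with single libraries, from 0.06 without DE replicate 7 to 0.21 without DE replicate 3 for Bdh1 against Aacs, and from 0.10 without FA replicate 2 to 0.22 without FA replicate 3 for Bdh1 against Oxct1. Among prefix 11 libraries they were 0.29 and 0.06, and Aacs against Oxct1 changed sign to -0.23. The remaining pairs, all against Bdh2 and all overlapping, differed by 0.57 for Aacs and 0.55 for Oxct1 (exact permutation p 0.0571, adjusted 0.0952, for both) and by 0.02 for Acat1 (exact permutation p 0.971). Bdh2 was so low that the added 0.5 CPM weighed on its ratios. Without that addition the differences against Bdh2 were 0.88 for Bdh1, 0.72 for Aacs, 0.67 for Oxct1 and 0.14 for Acat1. Over the 8 libraries, which share exposure and prefix as sources of spread, Pearson's r was -0.84 between the log2(CPM + 0.5) of Oxct1 and Acat1 and 0.82 between Bdh1 and Oxct1.

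**Figure D2:**
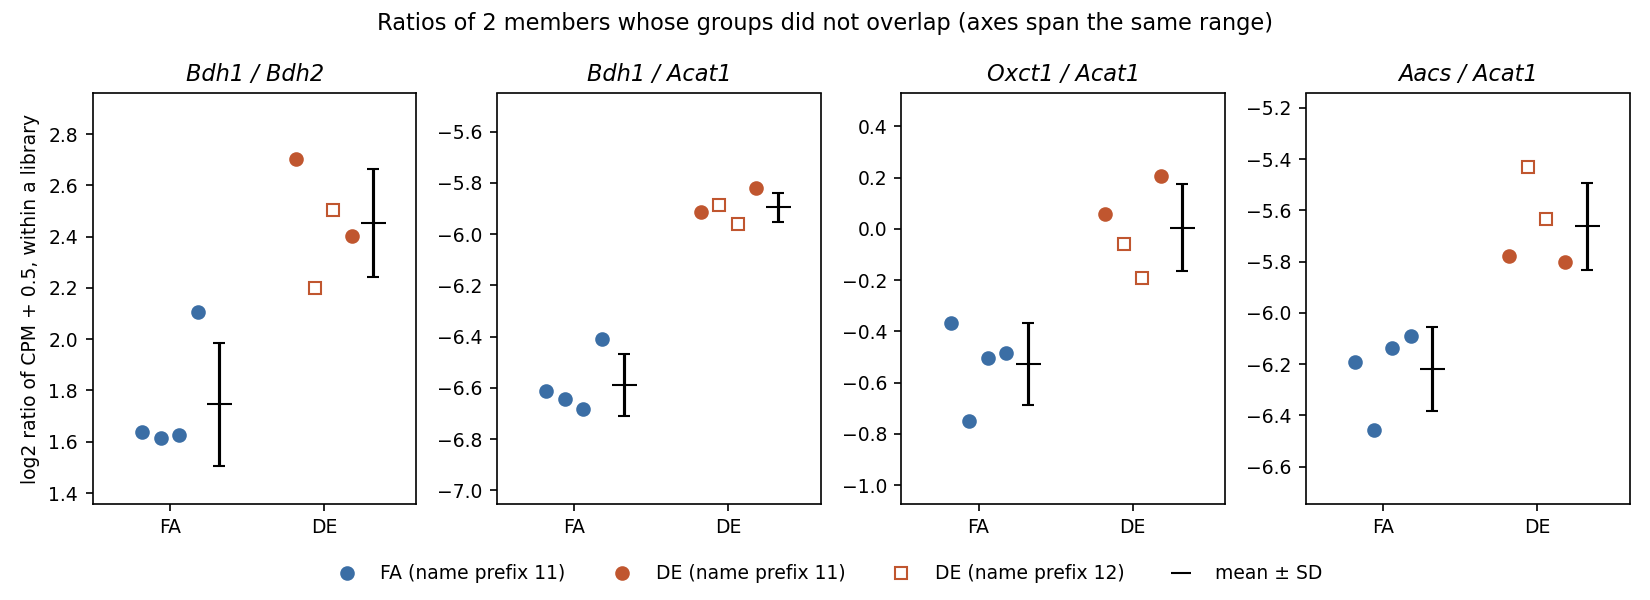
Log2 ratio of CPM + 0.5 within each library (vertical axes, all spanning the same range) for the 4 pairs of ketone body genes whose FA and DE libraries did not overlap, with 1 point per library, open squares for the DE libraries of prefix 12, and the mean ± SD. The log2 ratio of Oxct1 to Acat1 moved from -0.53 ± 0.16 in FA to 0.003 ± 0.17 in DE.

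Levels of different genes were compared as CPM per kb of exon. The length was the union of all annotated exons of a gene, whether or not these cells use them, so close rankings depend on it. Acat1 stood at 130.3 ± 4.73 CPM per kb in FA and 114 ± 5.19 in DE, and Oxct1 at 92.1 ± 8.22 in FA and 116 ± 10.9 in DE (SD, n = 4 per group). Acat1 was above Oxct1 in FA without overlap (125 to 135 against 80.7 to 98.4 CPM per kb), whereas the ranges overlapped in DE (111 to 122 against 108 to 131 CPM per kb). The genes on either side of this pair of steps were far lower. Aacs had 1.58 ± 0.185 CPM per kb in FA and 2.08 ± 0.277 in DE, Bdh1 had 1.19 ± 0.149 and 1.73 ± 0.0557, and Bdh2 had 0.241 ± 0.0253 and 0.195 ± 0.0457.

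The order of mean levels was therefore Acat1, Oxct1, Aacs, Bdh1 and Bdh2 in FA, and Oxct1 and Acat1 did not differ beyond their spread in DE. Aacs and Bdh1 overlapped in FA (1.36 to 1.80 against 1.07 to 1.40 CPM per kb) but not in DE (1.83 to 2.37 against 1.67 to 1.78). The mean level of Oxct1 per kb was 77.5 times that of Bdh1 in FA and 67.5 times in DE, so the transcript of the dehydrogenase that feeds the pathway from beta-hydroxybutyrate was scarce next to those of the later steps. Acat2, the cytosolic acetoacetyl-CoA thiolase, lay between these extremes at 4.11 ± 0.540 CPM per kb in FA and 4.68 ± 0.486 in DE.

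**Figure D3:**
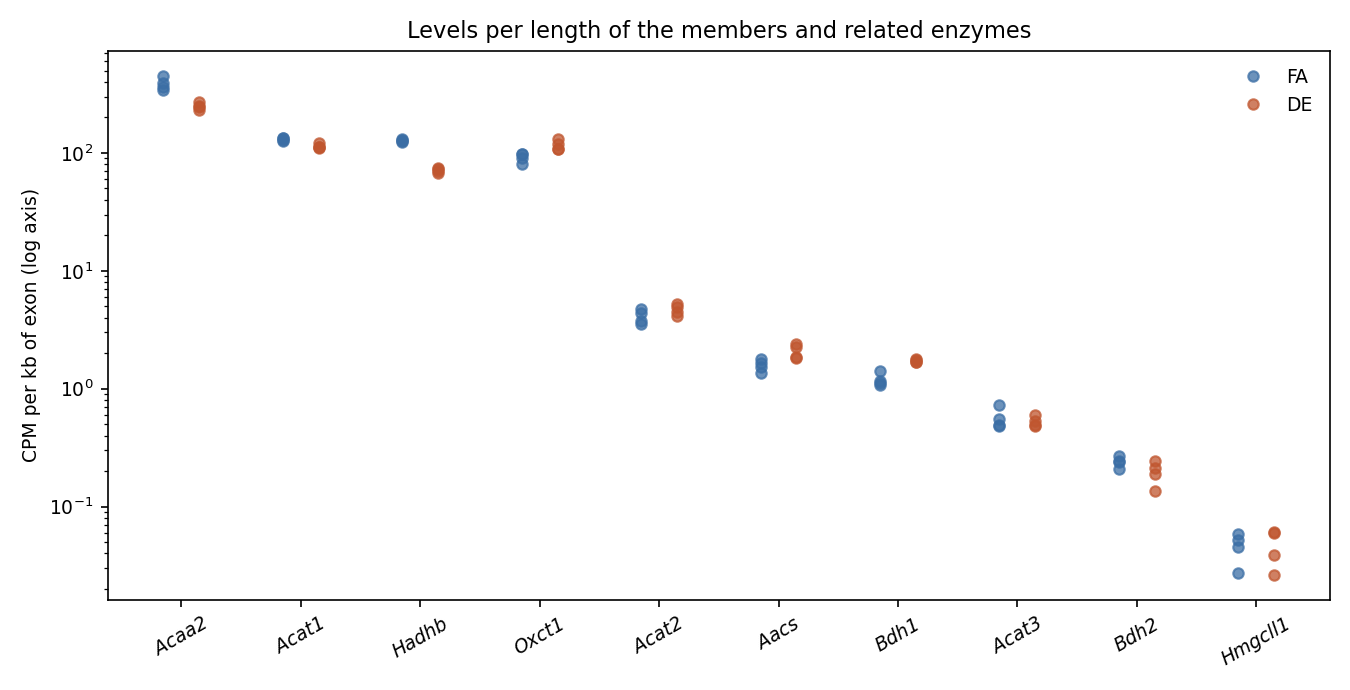
CPM per kb of exon (vertical log axis) of the 5 ketone body genes and 5 related enzymes, with 1 point per library and FA and DE side by side. Enzymes with a library at 0 are left out. Acat1 and Oxct1 lie between 80.7 and 135, and Aacs, Bdh1 and Bdh2 lie between 0.135 and 2.37.

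The enzymes and transporters around the 5 genes were taken from 8 short lists holding 55 genes, all present in the table, of which 46 were tested. Of these, 2 were called higher in DE and 3 lower, which is 10.9% of those tested against 5.80% of all genes. The lists were chosen with earlier results of these data known, and the paper already names Tfrc, Hadhb and Acaa2 as lower. The excess over all genes is therefore not a finding about the lists. Their median log2 fold change was -0.08, beside 0.004 for all tested genes. The called genes belong to thiolases, iron uptake, monocarboxylate transport and leucine breakdown, while further ketone enzymes, the citrate cycle entry, cytosolic users of acetyl-CoA and the listed regulators had 0 called genes.

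The further ketone enzymes did not pass the test, with 0 of 2 tested called and 0 at an unadjusted p under 0.05 in edgeR. Acat2 had 10.4 ± 1.37 CPM under FA and 11.9 ± 1.24 under DE (SD, n = 4 per group), a log2 fold change of 0.19 with overlapping groups and an adjusted p of 0.366 in the Benjamini-Hochberg adjusted edgeR fit. Acat3, a closely related thiolase whose counts may share reads with those of Acat2, had a log2 fold change of -0.09. Hmgcll1, Oxct2a and Oxct2b had at most 0.333 CPM in any library and were not tested.

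Among the other thiolases, 2 of 5 were called, both lower in DE, and 3 of 5 had negative log2 fold changes. Hadhb, the thiolase subunit of the mitochondrial trifunctional protein, had 816, 858, 824 and 851 CPM in FA replicates 2, 3, 4 and 6 and 449, 461, 487 and 483 CPM in DE replicates 1, 3, 5 and 7. It fell by 0.83 on the log2 scale (SE 0.08), with an adjusted p of 0.000441 in the Benjamini-Hochberg adjusted edgeR fit. Acaa2, the medium-chain thiolase of fatty acid oxidation, fell by 0.64 on the log2 scale (SE 0.11, edgeR adjusted p 0.00891). The linear ratio of Acat1 to Hadhb, given as a description because the pair was chosen after the values were seen, was 0.585 ± 0.00808 in FA and 0.913 ± 0.0343 in DE (CPM over CPM, SD, n = 4 each). Per kb of exon, Acat1 and Hadhb overlapped in FA (125 to 135 against 124 to 130.1 CPM per kb) and lay apart in DE, where Hadhb had 68.1 to 73.8 CPM per kb. The overlap in FA depends on the exon lengths taken, 3.758 kb for Acat1 and 6.595 kb for Hadhb.

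Of the transport and sensing genes, 1 of 6 tested was called, higher in DE, and 3 of 6 had positive log2 fold changes. Slc16a3, a lactate exporter of glycolytic cells, had 10.4, 8.82, 10.2 and 11.3 CPM in FA replicates 2, 3, 4 and 6 and 18.3, 63.0, 62.0 and 34.1 CPM in DE replicates 1, 3, 5 and 7. The DE libraries spread widely, with both prefix 12 libraries highest. Its log2 fold change was 2.13 (SE 0.33, edgeR adjusted p 0.00552 with Benjamini-Hochberg adjustment), and 1.35 among prefix 11 libraries alone (edgeR adjusted p 0.0124). Slc16a1, the main monocarboxylate carrier for ketone bodies and lactate and a gene named here after its values were seen, had 361 ± 15.5 CPM under FA and 334 ± 57.7 under DE (SD, n = 4 per group), a log2 fold change of -0.11 with an edgeR adjusted p of 0.581. The carriers Slc5a8 and Slc5a12 and the receptors Hcar2 and Ffar3 were untested, with at most 0.148 CPM in any library and 0 counts of Ffar3.

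Leucine breakdown yields acetoacetate and acetyl-CoA, isoleucine breakdown yields acetyl-CoA, and 1 of the 12 genes listed for both routes was called. Mccc2, the beta subunit of methylcrotonyl-CoA carboxylase, had 25.5, 28.4, 26.1 and 26.6 CPM in FA replicates 2, 3, 4 and 6 and 33.0, 32.9, 35.8 and 35.4 CPM in DE replicates 1, 3, 5 and 7. It rose by a log2 fold change of 0.36 (SE 0.09) with an adjusted p of 0.0391 in the Benjamini-Hochberg adjusted edgeR fit. Leaving out any library other than DE replicate 1 ended the call, with log2 fold changes of 0.34 to 0.39 over the 8 omissions. It was also lost with the prefix as a term (0.36, edgeR adjusted p 0.0945) and among prefix 11 libraries (0.35, edgeR adjusted p 0.142), and Mccc2 was called in 8 of 19 alternatives. Mccc1, which encodes the alpha subunit of the same enzyme and was named after its values were seen, had a log2 fold change of 0.02 (edgeR adjusted p 0.912). The median over the 12 genes was 0.02, with 7 positive.

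The 6 genes of succinyl-CoA and acetyl-CoA entry to the citrate cycle had 0 calls. Their products make or use succinyl-CoA, the coenzyme A donor of OXCT1, or take up the acetyl-CoA released by ACAT1. All 6 log2 fold changes were negative (-0.42 to -0.12, median -0.20), and 2 of 6 had an unadjusted p under 0.05 in edgeR, against 25.6% of all tested genes. Cs, citrate synthase, had 1280 ± 103 CPM under FA and 1092 ± 45.7 under DE (SD, n = 4 per group), a log2 fold change of -0.23 with an edgeR adjusted p of 0.154. Of the cytosolic users of acetoacetyl-CoA and acetyl-CoA, 0 of 6 were called and 0 had an unadjusted p under 0.05 in edgeR. Hmgcs1, the cytosolic synthase of the cholesterol route, had a log2 fold change of -0.04 (edgeR adjusted p 0.877).

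Of 4 tested partners in iron handling, 1 was called. Tfrc, the transferrin receptor, had 394, 272, 352 and 384 CPM in FA replicates 2, 3, 4 and 6 and 117, 98.3, 109.9 and 107 CPM in DE replicates 1, 3, 5 and 7. It fell by 1.70 on the log2 scale (SE 0.13, edgeR adjusted p 5.37e-05 with Benjamini-Hochberg adjustment), while Bdh2 itself had overlapping groups. Of the listed regulators, 0 of 5 tested were called and 0 had an unadjusted p under 0.05 in edgeR. Ppargc1a, a coactivator of mitochondrial genes, had 199 ± 26.1 CPM under FA and 166 ± 36.1 under DE (SD, n = 4 per group), a log2 fold change of -0.26 with an edgeR adjusted p of 0.310.

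**Figure D4:**
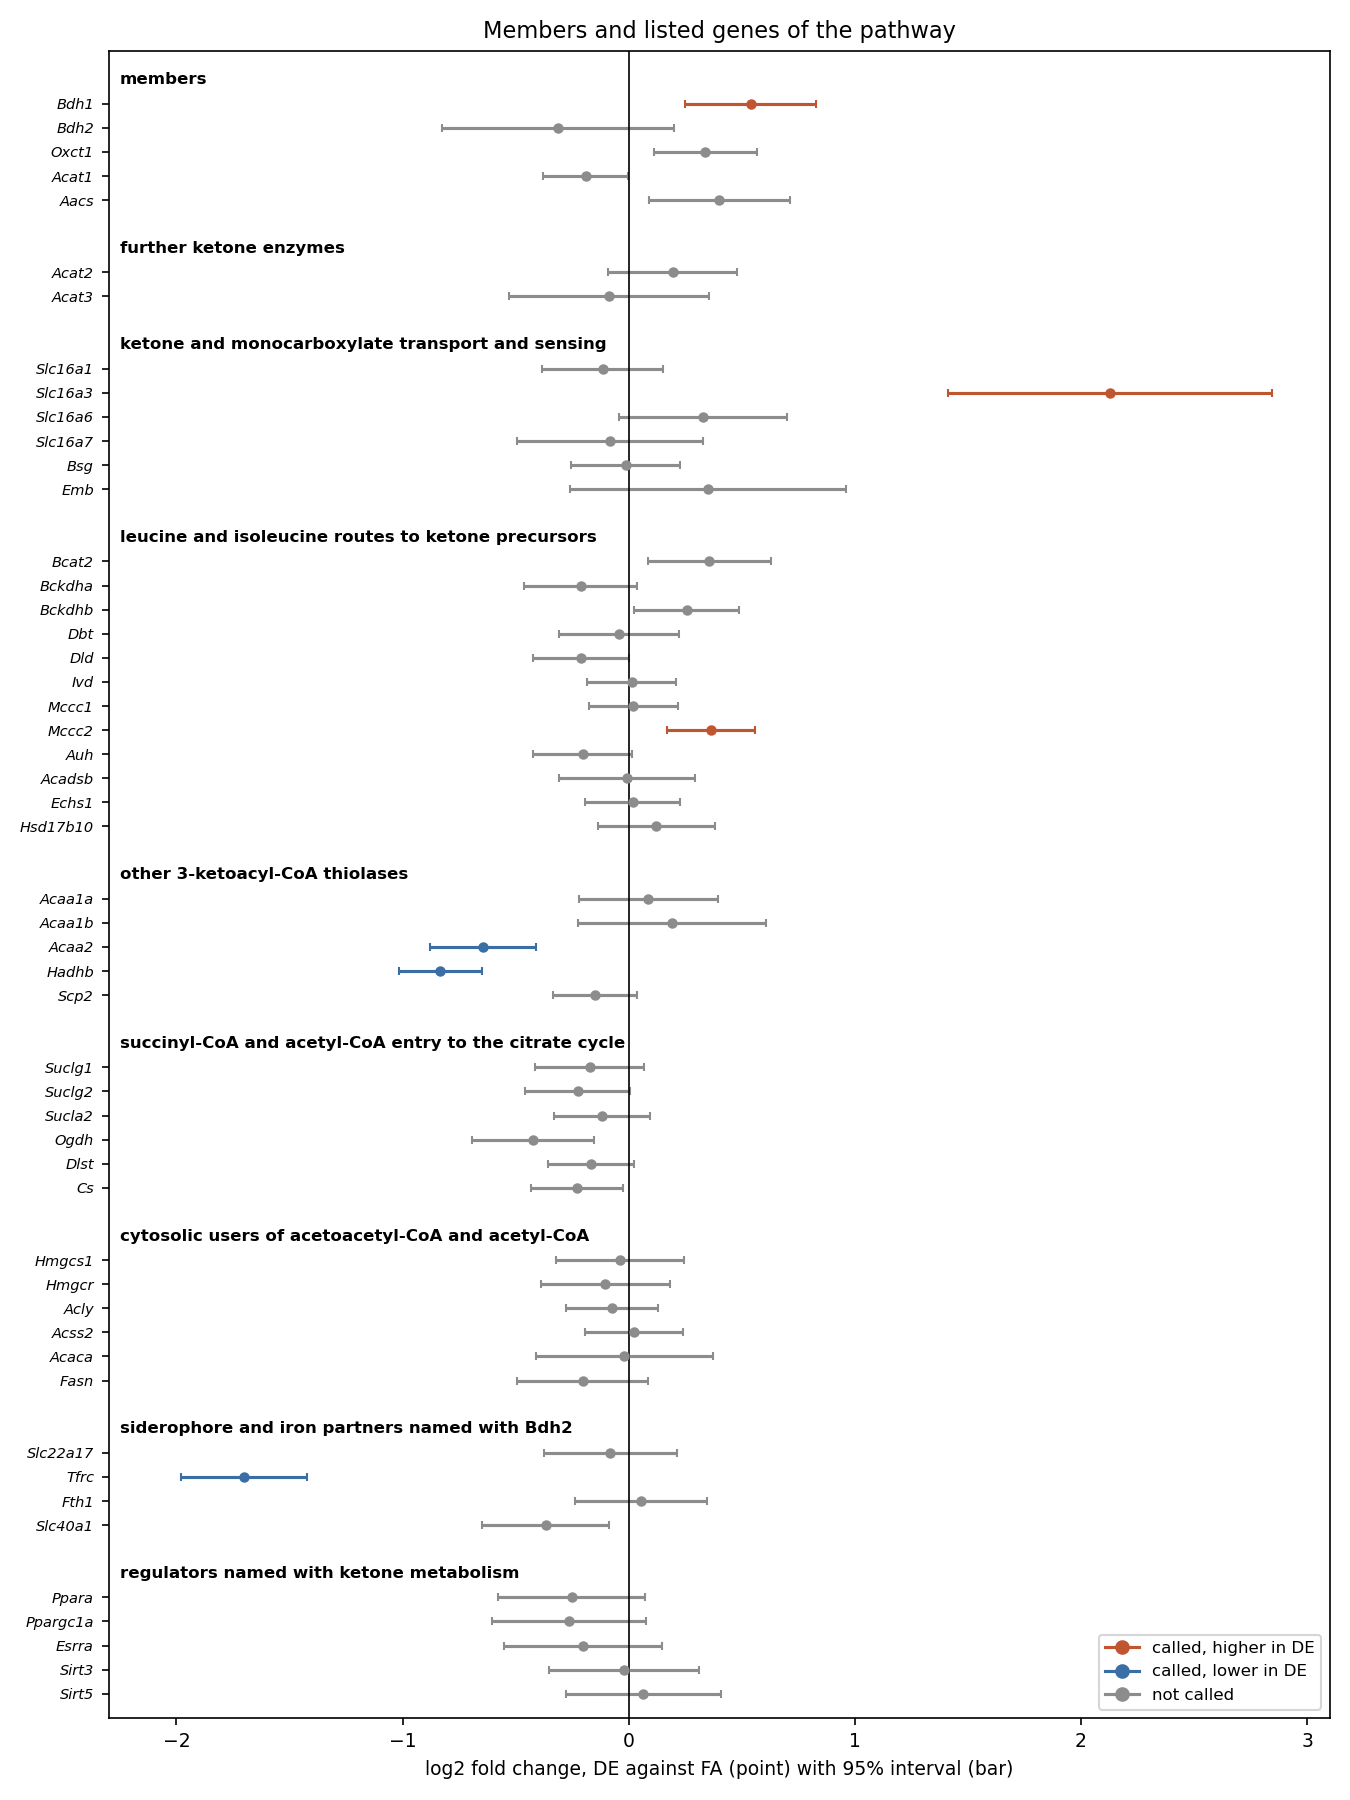
Log2 fold change of DE against FA (horizontal axis) with its 95% interval for the 5 ketone body genes and the 46 tested genes of the lists, coloured by whether edgeR's quasi-likelihood test called the gene. Slc16a3 at 2.13 and Tfrc at -1.70 lie farthest from 0, and the members lie between -0.31 and 0.54.

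The genes whose log2(CPM + 0.5) most closely followed each ketone body gene across the 8 libraries were found by Pearson's r among genes averaging 1 CPM or more. For Bdh1 they were Mcm7, a subunit of the replicative helicase (0.988), Cdc45, a helicase cofactor (0.985), and Cdk1, the mitotic kinase (0.984). For Oxct1 they were the desaturase Scd2 (0.982), Wdhd1 (0.977) and the kinesin Kif15 (0.972), and for Acat1 they were Aasdhppt (0.978) and Cwc27 (0.976). Aacs was followed by Fam72a (0.986), Rgs16 (0.980) and Tspan9 (0.977), and Bdh2 by Fam219b (0.979), Tmcc1 (0.939) and Bbof1 (0.894). These values describe 8 points that share the split by exposure, and each gene was compared with 13129 others (Bdh2 with 13130).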

How the data were processed

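RNA of 8 NCM libraries was measured by RNA-seq. After poly-A selection and stranded library preparation, the authors aligned reads to mm10 with Tophat, marked duplicates without removing them, and deposited raw counts per Entrez gene from featureCounts, without normalization. The counting annotation, strand setting and treatment of multiply mapped reads are not given in the sources used here. Counts therefore include duplicates, and paralogs and overlapping genes may share reads.

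Symbols came from RefSeq on GRCm38.p6 (25275 of 27179 genes matched) and exon lengths, the union of all annotated exons of a gene, from GENCODE. Genes kept by filterByExpr (minimum count 10) were scaled by TMM and tested with edgeR 4.0.16 in R 4.3.3 (glmQLFit, glmQLFTest), by exposure alone, with p-values adjusted after Benjamini-Hochberg over 14966 genes. Depth was 17943024 to 39839737 counts, and the biological coefficient of variation was 15.9%. Genes named were the 5 members, every called gene of the lists and, in lists with none, the gene of highest mean CPM. Slc16a1, Mccc1, Acat3 and the untested list genes were named beyond this rule, after their values were seen. The members and lists were chosen with earlier results of these data known. Not every gene of the pathway is reported here. Alternatives were DESeq2 1.42.0, limma-voom 3.58.1, the likelihood ratio test, the 25% difference built into the test, other scalings and filters, the prefix, and each library left out. The code was tested on simulated data. The methods state fewer samples per group than were deposited, and all 8 libraries were used. No libraries were copies of each other. By a chi-square of counts per gene within groups, FA replicates 2 and 4 were the most alike (5.06). Next came DE replicates 1 and 7 (16.0), FA replicates 3 and 6 (18.4) and DE replicates 3 and 5 (20.2). All other pairs had 27.8 to 62.8. Whether such pairs share a dam or a batch is not stated, and the tests took the libraries as independent.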

Additional observations from a re-analysis of the deposited data

Results flagged for a closer look

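Acat1 in DE replicate 5, at 458 CPM, stood apart from the other DE libraries, which had 416 to 422 CPM. Its gap to the nearest library, taken over the range of the group, was above Dixon's 95% critical value. This was 1 of 20 groups examined, and chance flags about 1 in 20. Without that library the log2 fold change of Acat1 was -0.22.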

How the results depend on the processing

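The count of called members, 1 in the report, was 2 with DESeq2 and with library totals alone, and 0 with the 25% difference built into the test, with the prefix as a term and with prefix 11 libraries only. It was 0 to 1 when single libraries were left out. Of all tested genes, 10.7%, 6.82%, 0.762%, 2.99% and 1.75% were called in these 5 settings, and 1.53% to 7.93% without single libraries. Bdh1 kept its direction in 19 of 19 alternatives and its call in 10. It was not called at log2 fold changes of 0.54 with the 25% difference built in, 0.54 with the prefix as a term and 0.54 with prefix 11 libraries only, and it ranged from 0.49 to 0.63 without single libraries. Oxct1 was called at 0.34 with DESeq2 and 0.41 with library totals alone. Of the listed genes, 5 were called, and 3 with the 25% difference built in, 3 to 7 over all alternatives. The ratios close to 0 changed sign. The log2 ratio of Acat1 to Bdh2 ranged from -0.0746 to 0.103 without single libraries, and that of Aacs to Oxct1 from -0.0696 to 0.142 and was -0.23 with prefix 11 libraries only. The cause was not tested. The directions of Oxct1, Acat1, Aacs and Bdh2 were kept in every alternative that tested them. Bdh2 was not tested at a mean of at least 1 CPM. Fits without single libraries or with prefix 11 libraries only gave no call on ratios, since an exact permutation p cannot go below 0.0571 for 4 against 3 and 0.133 for 4 against 2. No paired analysis was made, because the sources used here pair no FA library with a DE library. The 202 counts of Bdh2 limit what could be seen of it.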

Other observations

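Lcn2, which encodes a siderophore-binding secreted protein, had too few counts to be tested and ranged from 0.113 to 0.344 CPM in FA and from 0.299 to 0.938 CPM in DE. Foxa2, a regulator of ketone synthesis in liver, was at most 0.229 CPM in any library and was not tested.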
